A study of Mus musculus with 2 samples.

Results

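The genes examined are 10 messenger RNAs chosen around the seed that the microRNAs miR-25, miR-32 and miR-92 share. They are Klf2, Klf4, Fbxw7, Map2k4, Lats2, Kat2b and Smad7, named as targets of that seed in earlier literature, and the CPEB relatives Cpeb2, Cpeb3 and Cpeb4. Members were found by the accession that the array gives for each probe, and all of their probes were kept: 19 probes for the 10 genes, each printed as 1 spot. Of these genes 8 had a detected probe, out of 13903 detected genes in all. Cpeb2 and Cpeb4 had none.

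RNA came from the ventral prostate of mice that carried the ARR2PB-miR32 transgene and of wild-type mice, all of strain FVB/N (also spelled FBV/N in the labels) and 6 months old. ARR2PB is an androgen-responsive promoter made from probasin sequences, so the transgene is meant for the epithelial cells of the prostate, while the RNA came from the whole tissue. RNA of 6 transgenic mice made 1 pool and RNA of 6 wild-type mice the other, and both pools were hybridised together on 2 two-colour Agilent arrays. The transgenic pool was in Cy3 (green) on array 1 and in Cy5 (red) on array 2. The arrays are technical replicates of the same pools, so each genotype has 1 replicate, mouse-to-mouse spread is unknown, and no significance test or p-value is given.

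A microRNA pairs with messenger RNAs mainly through its seed, bases 2 to 8 from the 5′ end, and guides a silencing complex that lowers their stability and translation. MicroRNAs with the same seed therefore have overlapping sets of targets, and the fall in any 1 messenger RNA is often modest. miR-32 has been studied in prostate cancer as an androgen-regulated microRNA.

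The mature sequences are shown because the seed is what links miR-32 to the genes named as its targets. The messenger RNAs of the 10 genes were not searched for a match to it. In the RefSeq table (build GRCm38.p6), 6 of 1679 mouse mature microRNAs carried the seed AUUGCAC, from 7 loci. Each is printed 5′ to 3′ with the seed in capitals:
mmu-miR-32-5p: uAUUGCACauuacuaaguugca
mmu-miR-25-3p: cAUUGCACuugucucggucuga
mmu-miR-92a-3p: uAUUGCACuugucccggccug
mmu-miR-92b-3p: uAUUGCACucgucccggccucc
mmu-miR-363-3p: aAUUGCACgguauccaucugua
mmu-miR-367-3p: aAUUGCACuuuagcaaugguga
The match to this seed in a messenger RNA reads GUGCAAU. After the seed the family differs: miR-25-3p, miR-363-3p and miR-367-3p each had the same base as miR-32-5p at 6 of 14 later positions, miR-92b-3p at 3 of 14, and miR-92a-3p at 3 of 13. miR-32-5p lies at chr4:56895272-56895293 on the minus strand (GRCm38.p6), inside the gene Tmem245. Its precursor is a hairpin of 70 bases, shown with the mature strand in capitals:
Mir32 hairpin: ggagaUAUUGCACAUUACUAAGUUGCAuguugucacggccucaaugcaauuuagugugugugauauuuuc
The array measures messenger RNAs and not the microRNA, and the transgene was not measured here. The probe of Tmem245 was not detected. Mcm7, the replication helicase gene in which miR-25 lies, was lower in the transgenic pool at a log2 ratio of -0.61 ± 0.12 (SD of the 2 arrays).

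All ratios are log2 of transgenic over wild type, the mean of the 2 arrays with their SD (n = 2 technical arrays). Signals are intensities after background correction and normalization. Since the 2 arrays give technical error alone, 2 rules of size stand in for a test. By the 2-fold rule a gene is lower or higher where its mean ratio is at least 2-fold and each array alone shows at least 1.5-fold. By the small-change rule it is lower or higher where the mean is at least 0.32 in size on the log2 scale and both arrays have the same sign.

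Fbxw7, Klf4, Lats2 and Map2k4 were modestly lower in the transgenic pool, and the other detected genes passed neither rule. By the probe used for each gene, the brightest detected one, the median of the 8 was -0.34, against 0.01 for all 13903 detected genes, and the values ran from -0.63 for Map2k4 to 0.10 for Klf2. The small-change rule called 4 of 8 lower where 14.6% of all genes passed, and 0 of 8 were higher where 10% passed. None was lower or higher by the 2-fold rule (0 of 8 each way), which 3.53% and 1.09% of all genes passed. In all 6 of 8 were below 0 on both arrays, as were 27.3% of all genes, and 0 of 8 were above 0 on both, as were 24.6%. With the ratios of Feature Extraction, the scanner's own software, 17.9% of all genes were lower and 19% higher by the small-change rule, and 6 of the 8 were lower. In whole tissue, fewer cells that express a gene and less RNA per cell cannot be told apart.

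**Figure D1:**
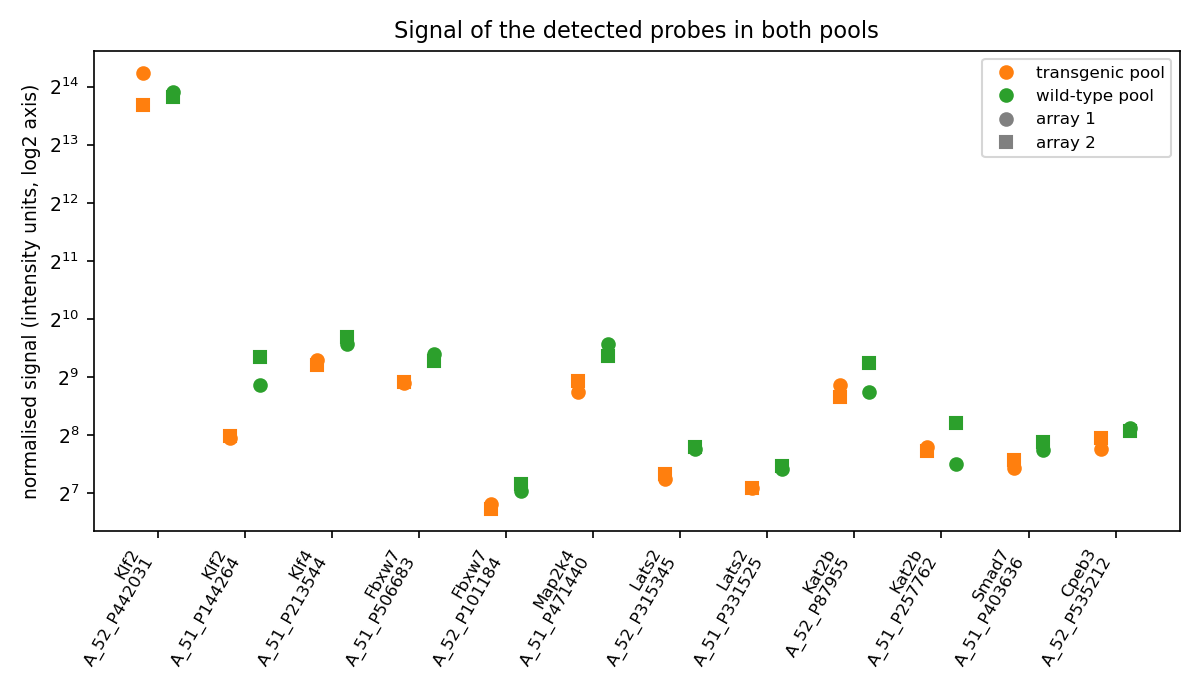
Normalised signal (intensity units, log2 axis) of the 12 detected probes in the transgenic pool (orange, left) and the wild-type pool (green, right), with array 1 as circles and array 2 as squares. The transgenic points lie below the wild-type points on both arrays for 9 of the probes, and the dimmer Klf2 probe shows the widest gap. The 12 probes belong to 8 genes, and 27.3% of all detected genes, by 1 probe each, were lower on both arrays.

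The Krüppel-like factors are zinc-finger transcription factors. Klf4 helps epithelial cells leave the cell cycle and differentiate, and is one of the factors used to reprogram cells to pluripotency. Its single probe gave 629 and 590 in the transgenic pool, against 754 and 827 in the wild-type pool (array 1 and array 2). Both transgenic values lay below both wild-type values, and the ratio was -0.37 ± 0.16, or 1.30-fold lower. On array 1 alone the ratio was -0.26, which is short of 0.32 in size, and in the red channel alone it was -0.31.

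Klf2 is known from endothelium, where it responds to blood flow, and from resting T cells. Its 2 detected probes carry the same accession and disagreed. The probe used, A_52_P442031, gave 19395 and 13212 in the transgenic pool, against 15458 and 14464 in the wild-type pool, a ratio of 0.10 ± 0.32 with opposite signs on the 2 arrays. The other, A_51_P144264, gave 248 and 254 in the transgenic pool, against 464 and 650 in the wild-type pool, with no overlap. There the ratio was -1.13 ± 0.32, or 2.19-fold lower, with -0.91 on array 1 and -1.36 on array 2, which would pass the 2-fold rule. Feature Extraction's ratios put it at -1.74 and the deposited table of the series at -1.81. The probes thus lay 1.23 apart, and among 3361 genes with at least 2 detected probes only 30 (0.893%) had probes farther apart, where the median range was 0.16. The direction of Klf2 is therefore not settled by these arrays.

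Fbxw7 is the substrate receptor of an SCF ubiquitin ligase and marks cyclin E, MYC, JUN and NOTCH proteins for degradation. Its brighter probe gave 473 and 479 in the transgenic pool, against 676 and 619 in the wild-type pool. The pools did not overlap, and the ratio was -0.44 ± 0.10, or 1.36-fold lower. Its dimmer probe gave 112 and 105 in the transgenic pool, against 131 and 143 in the wild-type pool, a ratio of -0.33 ± 0.16, with the transgenic signal well above background on array 1 alone. The probes lay 0.11 apart, within the usual range.

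The 2 kinases were the lowest of the genes by the probes used. Map2k4 encodes MKK4, which activates the stress kinases JNK and p38. It gave 427 and 485 in the transgenic pool, against 755 and 661 in the wild-type pool, a ratio of -0.63 ± 0.27, or 1.55-fold lower. Of all detected genes, 6.90% had a lower ratio. Under median centring in place of loess Map2k4 (-0.59), Fbxw7 (-0.40) and Klf4 (-0.33) had similar means but no longer passed the small-change rule, since array 1 stood above 0 at 0.14, 0.45 and 0.74.

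Lats2 is a Hippo pathway kinase that phosphorylates YAP and TAZ and keeps them out of the nucleus. Its brightest probe gave 150.5 and 160 in the transgenic pool, against 217 and 220.2 in the wild-type pool, without overlap and with the arrays close together. The ratio was -0.50 ± 0.04, or 1.41-fold lower. A second probe of the same accession gave 135.1 and 135.3 in the transgenic pool, against 171 and 177 in the wild-type pool, a ratio of -0.36 ± 0.04, with the transgenic signal well above background on array 1 alone. The other 2 of its 4 probes were not detected and stood at 0.03 ± 0.22 and -0.20 ± 0.68. Lats2 was the only one of the 8 that passed the small-change rule under each of the alternatives run, and its ratio was -0.92 in the deposited table and -0.85 by Feature Extraction. Under median centring that pass was narrow, with -0.025 on array 1 and -0.985 on array 2.

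**Figure D2:**
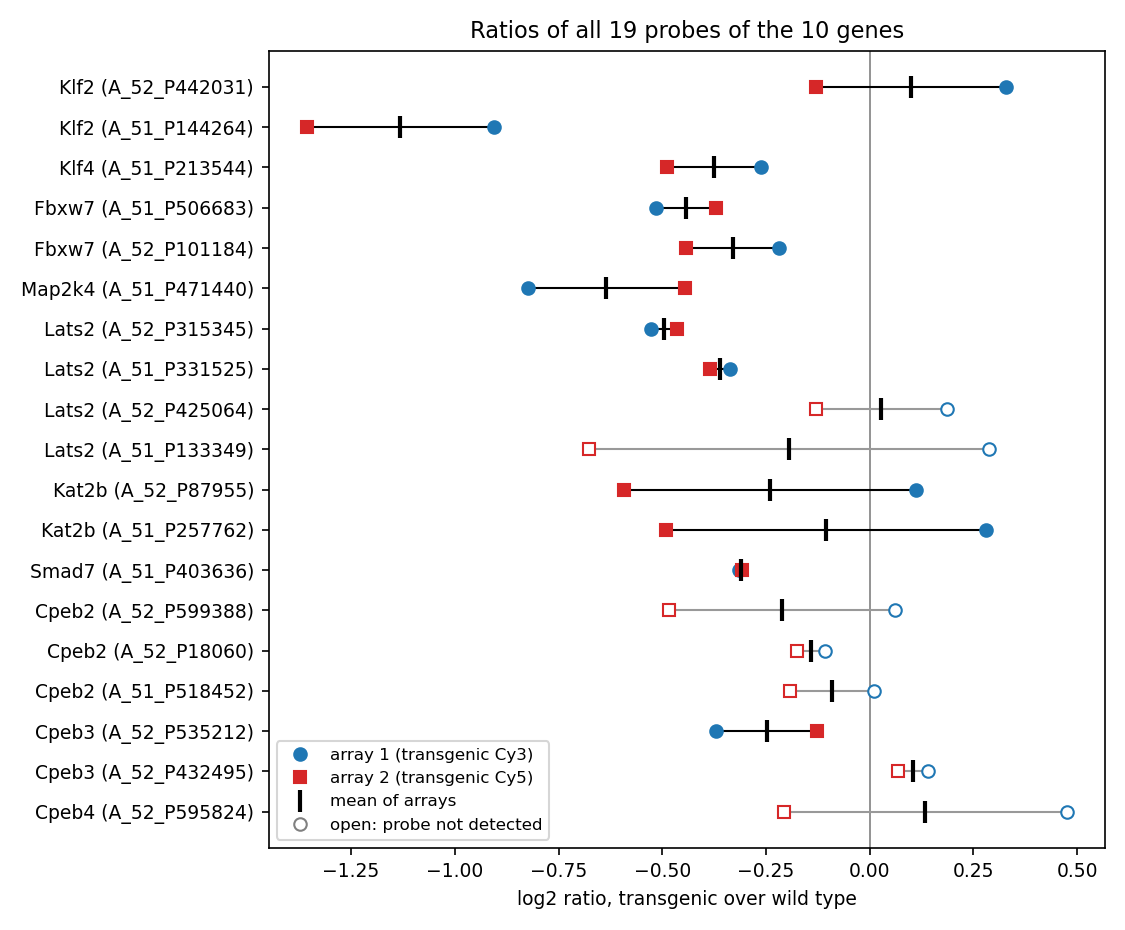
log2 ratio of transgenic over wild type for all 19 probes, with array 1 as blue circles, array 2 as red squares and the mean of the arrays as a black bar; open symbols mark the 7 probes that were not detected. Of the 12 detected probes, 9 lie below 0 on both arrays, and the arrays are farthest apart for both Kat2b probes and for 2 undetected ones of Lats2 and Cpeb4. The 12 probes belong to 8 genes, and 27.3% of all detected genes, by 1 probe each, lie below 0 on both arrays.

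Kat2b, also called PCAF, is a histone acetyltransferase and a coactivator of nuclear receptors. Its brighter probe gave 462 and 401 in the transgenic pool, against 428 and 604 in the wild-type pool, and the pools overlapped. The arrays had opposite signs, 0.11 on array 1 and -0.59 on array 2, with a mean of -0.24 ± 0.50. The dimmer probe showed the same split, 0.28 on array 1 and -0.49 on array 2, with a mean of -0.10 ± 0.55. For the brighter probe Feature Extraction's ratios gave -0.32, again with opposite signs. The deposited table gave -0.39, with -0.01 on array 1 and -0.77 on array 2, which passed the small-change rule, as did green alone. By Feature Extraction the dimmer probe was below 0 on both arrays, at -0.27 and -0.40. The direction of Kat2b on array 1 thus moved with the processing.

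Smad7 is an inhibitory SMAD that binds the TGF-beta type I receptor and blocks signalling, and is itself induced by TGF-beta. Its single probe gave 172 and 190.4 in the transgenic pool, against 214 and 236 in the wild-type pool, without overlap. The arrays gave nearly the same ratio, -0.31 on each, so that the mean of -0.31 ± 0.004 had the smallest SD of the 8 genes. That mean is a 1.24-fold difference, just short of the small-change rule, and 15.8% of detected genes had a lower ratio. It was -0.49 in the deposited table, where it passed, and -0.42 by Feature Extraction, where it passed as well. Under median centring in place of loess the arrays had opposite signs, 0.23 on array 1 and -0.90 on array 2.

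The CPEB proteins bind U-rich elements at the ends of messenger RNAs and control their poly(A) tails and translation. Cpeb3 was the only one of them detected, by 1 of its 2 probes, with 216 and 247 in the transgenic pool, against 279 and 269 in the wild-type pool. The pools did not overlap, but the ratio of -0.25 ± 0.17 was short of the small-change rule. It was -0.40 in the deposited table, -0.34 by Feature Extraction and -0.37 on array 1 alone, and passed the rule in each. Under median centring in place of loess the arrays had opposite signs, 0.31 on array 1 and -0.81 on array 2. The other probe of Cpeb3 was not detected and stood at 0.10 ± 0.05.

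The 3 probes of Cpeb2 stood at -0.21 ± 0.39, -0.14 ± 0.05 and -0.09 ± 0.14, and the single probe of Cpeb4 at 0.13 ± 0.48. Their signals were 89.5 to 128 in the transgenic pool, against 102.2 to 141 in the wild-type pool, for Cpeb2, and 162 and 123 in the transgenic pool, against 116 and 142 in the wild-type pool, for Cpeb4. The pools overlapped for each of the 3 Cpeb2 probes and for Cpeb4. All 7 undetected probes of the 10 genes were well above background in green on both arrays and in red on neither, so that their two-colour ratios rest on a dim red signal. In green alone the Cpeb2 probes gave -0.08, 0.17 and 0.11 and the Cpeb4 probe 0.24, all short of 0.32 in size. No direction can be given for Cpeb2 or Cpeb4.

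Comparing 1 dye at a time across the arrays left Fbxw7, Lats2 and Map2k4 lower by the small-change rule in both dyes, while the other genes called differed. Green alone called 6 of 8 lower and 1 higher, where 16% and 18% of all genes passed, and red alone 3 lower and 0 higher, where 15.1% and 16.5% passed. This alternative was chosen after seeing the data. In green alone, which has the lower background, 11 of 12 detected probes were below 0, against 42% of all detected probes, and in red alone also 11 of 12, against 46%. Green alone gave -0.59 for Map2k4, -0.52 for Lats2, -0.44 for Smad7, -0.39 for Klf4, -0.37 for Kat2b, -0.34 for Fbxw7 and -0.28 for Cpeb3. Red alone gave -0.63 for Map2k4, -0.48 for Fbxw7, -0.41 for Lats2, -0.31 for Klf4, -0.15 for Smad7, -0.14 for Cpeb3 and -0.06 for Kat2b. The probe used for Klf2 was at 0.52 in green and -0.21 in red, while its other probe was at -1.38 and -0.87.

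**Figure D3:**
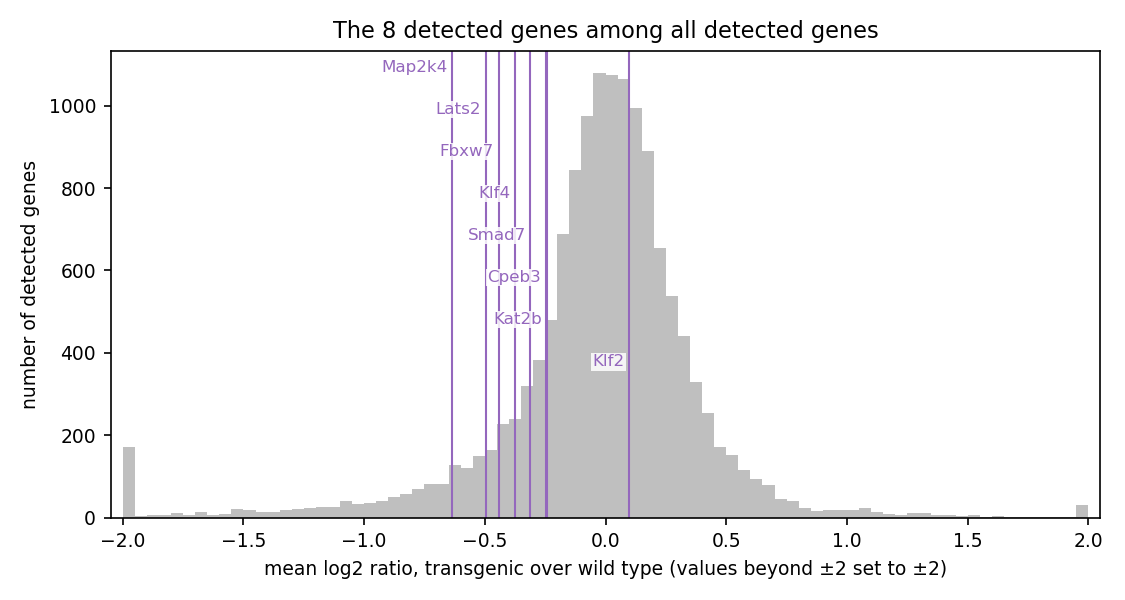
Histogram of mean log2 ratios of all 13903 detected genes (transgenic over wild type, values beyond 2 in size set to 2), with the 8 detected genes as lines. All but Klf2 lie left of the centre, between -0.63 and -0.24, and 6.90% of all genes lie below the lowest of them, Map2k4.

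The related genes of each pathway were mostly near the median of all genes. For the counts that follow, 14.6% of all genes were lower and 10% higher by the small-change rule. Of the 15 other KLF genes 9 were detected, with a list median of 0.12, and Klf8 was the only one to pass the 2-fold rule. It gave 620 and 557 in the transgenic pool, against 237 and 202.4 in the wild-type pool, a ratio of 1.42 ± 0.05 or 2.68-fold higher. Klf10, a TGF-beta-inducible factor, was lower by the small-change rule at -0.67 ± 0.19. Klf15 stood at -0.31 ± 0.21 and its other probe at 0.22, and Klf9 at 0.22 ± 0.09. The KLF family thus held 1 lower and 1 higher gene by the small-change rule, in opposite directions.

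Around Fbxw7, none of the 8 detected genes of the SCF ligase or its regulators passed either rule (0 lower and 0 higher), with a median of 0.07. The core adaptor Skp1 stood at -0.15 ± 0.32, the deubiquitinase Usp28 at -0.11 ± 0.09 and the F-box protein gene Fbxw11 at 0.12 ± 0.18. Of 9 detected genes for Fbxw7 substrates, which the ligase controls as proteins, 2 were lower and 1 was higher by the small-change rule, with a median of 0.10. The lower ones were the transcription factor Cebpa (-0.41 ± 0.08) and the survival factor Mcl1 (-0.37 ± 0.34). Srebf1, the regulator of lipid synthesis genes, was higher at 0.83 ± 0.04, and Klf5 stood at 0.16 ± 0.06.

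In the JNK and p38 pathway around Map2k4, 1 of 18 detected genes was lower and 1 higher by the small-change rule, with a median of -0.03. These were the stress-activated kinase Map3k5, at -0.41 ± 0.10, and the AP-1 factor Jund, at 0.56 ± 0.56. The scaffold gene Mapk8ip3 stood at -0.27 ± 0.57 and the JNK2 gene Mapk9 at 0.28 ± 0.37. Map2k7, the other activator of JNK, stood at -0.02 ± 0.08.

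Of 16 detected Hippo genes, 4 (25%) were lower and 0 higher by the small-change rule, and the median was -0.11. The lowest was Ccn2, or connective tissue growth factor, a target of YAP and also of TGF-beta, at -0.996 ± 0.235, just short of the 2-fold rule. The YAP relative Wwtr1 was at -0.56 ± 0.73, with -0.04 on array 1 and -1.07 on array 2, the LIM protein gene Ajuba at -0.52 ± 0.32 and the receptor kinase Axl at -0.50 ± 0.34. Yap1 stood at 0.20 ± 0.34 and the kinase adaptor Mob1b at 0.18 ± 0.10. Lats1, the paralog of Lats2, stood at 0.06 ± 0.41.

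In TGF-beta and SMAD signalling around Smad7, 3 of 20 detected genes (15%, near the 14.6% of all genes) were lower and 0 higher by the small-change rule. The median was -0.01. The lower ones were Id1, an inhibitor of differentiation induced by BMP signals, at -0.81 ± 0.13, the ligand Tgfb2 at -0.68 ± 0.18 and the type I receptor Tgfbr1 at -0.54 ± 0.25. The receptor-regulated SMADs Smad3 (0.28 ± 0.26) and Smad1 (0.22 ± 0.45) were at the other end. The ligand Tgfb1 stood at -0.32 ± 0.06, at the edge of the small-change rule.

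Among histone acetyltransferases and their complexes, 0 of 16 detected genes passed either rule, with a median of 0.10. Ep300 stood at -0.24 ± 0.04 and Eny2 at -0.16 ± 1.18, while Taf5l was at 0.24 ± 0.44 and Trrap at 0.24 ± 0.56. Kat2a, the paralog of Kat2b, was not detected. Among 18 genes of cytoplasmic polyadenylation, Cpeb1, the founding CPEB protein, was lower by the small-change rule at -0.38 ± 0.27 and 0 were higher, with a median of -0.03. Cpeb1 was dim, with 104 and 126 in the transgenic pool, against 155 and 144 in the wild-type pool. Without background subtraction its ratio was -0.30, short of the rule. The poly(A)-binding protein gene Pabpc1 stood at -0.29 ± 0.51 and the deadenylase scaffold Cnot1 at 0.30 ± 0.19. The other detected probe of Cnot1 stood at -0.01, with 0.12 on array 1 and -0.15 on array 2.

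**Figure D4:**
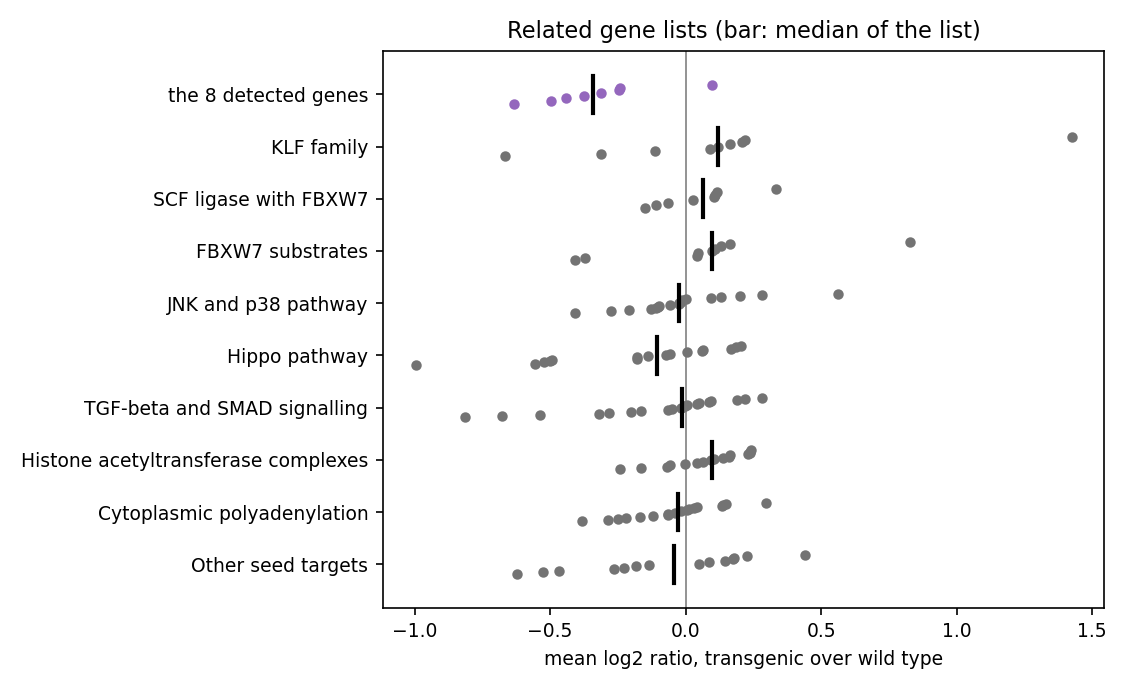
Mean log2 ratio of transgenic over wild type for the 8 detected genes (purple) and for each detected gene of the related lists (grey), with black bars at the median of each list. The medians of the related lists lie between -0.11 and 0.12, against -0.34 for the 8 genes.

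Further genes that earlier work has named for this seed went both ways. Of 14 detected, 3 were lower and 1 was higher by the small-change rule, and 0 passed the 2-fold rule, with a median of -0.04. That median ran from -0.17 and -0.15 on array 1 and array 2 alone, where all genes had -0.01 and -0.02, to 0.07 with detection in both pools, where all genes had 0.03. It was -0.10 with the mean of each gene's probes, 0.02 with Feature Extraction's ratios and 0.04 under median centring, where all genes had 0.02, 0.05 and 0.06. The lower ones were the integrin gene Itgav (-0.62 ± 0.09), the secreted WNT modulator Dkk3 (-0.53 ± 0.23, the transgenic pool not being well above background on array 2) and the proapoptotic gene Bcl2l11 (-0.47 ± 0.29). The antiproliferative gene Btg2 stood at -0.14 ± 0.08 and the PI3-kinase inhibitor Pik3ip1 at -0.27 ± 0.06. Mcu, the mitochondrial calcium channel, was at 0.23 ± 0.53.

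Markers of several cell types were also lower in the transgenic pool, and their part in the values above was not tested. The medians were -2.92 for 7 B and plasma cell genes (6 lower by the 2-fold rule), -1.62 for 7 macrophage genes (6 lower), -1.51 for 7 T and NK cell genes (5 lower) and -0.76 for 7 fibroblast genes (2 lower). Several of these markers passed detection only through the wild-type pool. With detection in both pools 3 B and plasma cell genes remained with a median of -3.54 and 2 T and NK cell genes with -0.76, while all 7 macrophage and all 7 fibroblast genes remained. The summed signal was 2119 and 2374 in the transgenic pool, against 22020 and 25020 in the wild-type pool, for B and plasma cells. It was 2675 and 2962 in the transgenic pool, against 9727 and 12524 in the wild-type pool, for macrophages. For T and NK cells it was 735 and 1000.3 in the transgenic pool, against 1900.4 and 2094 in the wild-type pool. For fibroblasts it was 14263 and 8706 in the transgenic pool, against 14883 and 34965 in the wild-type pool. Most of the fibroblast sum was Dcn, with 11497 and 6134 in the transgenic pool, against 10530 and 29557 in the wild-type pool. The Dcn ratio was 0.13 on array 1 and -2.27 on array 2, and it passed neither rule. Basal epithelial (-0.44, 6 genes) and smooth muscle (-0.34, 8 genes) medians were close to that of the 8 genes. Summed signals were 6064 and 6535 in the transgenic pool, against 9023 and 8126 in the wild-type pool, for basal cells. For smooth muscle they were 29977 and 24212 in the transgenic pool, against 29543 and 44602 in the wild-type pool. A large part of the smooth muscle sum was Tagln, whose ratio was 0.77 on array 1 and -1.30 on array 2. Endothelium, a known site of Klf2, had a median of -0.15 over 5 of 11 detected markers, with summed signals of 861 and 887 in the transgenic pool, against 943 and 1047.6 in the wild-type pool, and its defining genes Pecam1, Cdh5, Kdr, Tek, Tie1 and Eng were not detected. Its median was -0.20 and -0.28 on array 1 and array 2 alone, -0.39 in the deposited table and -0.27 with detection in both pools (3 genes each), and -0.01 in red alone. All 10 luminal epithelial markers were detected with a median of 0.09, and 3 were higher and 0 lower by the small-change rule: Epcam (0.90 ± 0.11), Cdh1 (0.44 ± 0.34) and Krt8 (0.36 ± 0.38). The other detected Krt8 probe gave 1.58 on array 1 and -0.32 on array 2, opposite signs that would not pass the rule. The luminal median was 0.06 and 0.24 on array 1 and array 2 alone, 0.32 under median centring and -0.002 in the deposited table.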

How the data were processed

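Two-colour Agilent arrays were read with Feature Extraction 11.0.1.1 and carry annotation build mm9, per the file headers. The deposited files give spot and background intensity as median pixel values per dye, flags (well above background, outlier, saturated), and a log10 ratio of red over green made from background-subtracted, dye-normalized intensity, per the file headers. The deposited table holds log2 ratios of 15511 probes. Set against the scanner files, it ran as transgenic over wild type, shifted by -0.08 and -0.05 to medians near 0. Its probe filter was not given in the sources used here.

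Median signals were background-corrected by normexp (offset 50, which pulls ratios of dim probes toward 0). Loess followed within arrays, with control and outlier spots at weight 0 (limma 3.58.1, R 4.3.3). Printed signals were also put on a common scale between arrays (Aquantile). The labels' dyes gave each ratio its direction, and the mean of both orientations cancels dye effects. A probe was detected where at least 1 pool was well above background on both arrays (18113 of 41174 probes), and the brightest detected probe stood for a gene. No spot of the 10 genes was saturated or an outlier (0 spots). Precision is limited by the number of arrays, 2 of the same pools. The code was also run on simulated dye-swapped arrays, with 200 probes altered. Its accuracy for dim probes and for ratios as small as those of the 10 genes was not tested.

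RefSeq symbols (GRCm38.p6) were matched on accession for 27816 probes and not for 13358. The builds differ, so no gene coordinates are given. The 10 genes, lists and rules were chosen with earlier results of these data known. In related lists the genes past the 2-fold rule and the 2 lowest and 2 highest were named, with Btg2, Bcl2l11 and Pik3ip1. Some genes that this rule takes are not reported here, though the counts and medians of their lists include them. Map2k7, Lats1, Ajuba, Axl, Tgfbr1, Tgfb1, Tmem245, Mcm7, Junb, Epcam, Cdh1 and Krt8 were named after their values were seen. Alternatives were other background correction, centring, ratios, probe filters, probe averaging and single arrays.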

Additional observations from a re-analysis of the deposited data

How the results depend on the processing

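The median of the 8 detected genes stayed below 0 in all 12 alternatives. It was -0.45 in the deposited table, -0.28 over all 10 genes with no filter on dim probes, -0.26 in the red channel alone and -0.41 with Klf2 by its dimmer probe, and it ran from -0.41 to -0.34 on single arrays. The count lower by the small-change rule was 4, with 1 under median centring, where array 1 turned above 0 for 3 of them, and 7 in the deposited table, where 16% of all genes passed. On array 1 and array 2 alone it was 4 and 5, where 21.5% and 23% passed. With Klf2 by its dimmer probe 1 gene was lower by the 2-fold rule. Klf2 was higher by the small-change rule in the green channel alone (1 gene, where 18% of all genes passed) and on array 1 alone (22.8%; 0 to 1 gene on single arrays). Klf4, Fbxw7, Map2k4, Lats2, Smad7 and Cpeb3 were below 0 in 11 of 11 alternatives, Kat2b in 10 of 11, with 0.11 on array 1 alone, and Klf2 in 4 of 12, from -1.13 to 0.52. These counts take the sign of the mean where both arrays were used. Under median centring array 1 stood above 0 for all of these genes but Lats2. These alternatives are not independent checks. Dropping the filter on dim probes, or asking for detection in both pools, left the ratio of each of the 8 unchanged. The deposited table holds Feature Extraction's ratios shifted by a constant on each array, and the single arrays average to the main ratio. Among all genes, the share lower by the 2-fold rule was 3.53%, with 1.54% without a filter and 6.75% with Feature Extraction's ratios, and the share higher was 1.09%, with 0.473% and 2.22%. By the small-change rule 14.6% were lower, with 7.90% under median centring and 23% on array 2 alone, and 10% were higher, with 4.07% and 16.9%. The cause of these shifts was not tested. No paired analysis was possible because each genotype has 1 pool, and the ratio within an array already sets the pools side by side. Red signals near background limit Cpeb2, Cpeb4 and the dim probes.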

Other observations

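The 7 undetected probes of Cpeb2, Cpeb3, Cpeb4 and Lats2 mostly had larger ratios in size by the scanner's own software than in the normexp values. With Feature Extraction's ratios, turned to transgenic over wild type, all 7 were above 0 on array 1. On array 2, 6 of 7 were below 0, so the sign mostly moved with the dye. Most were also above 0 on array 1 and below 0 on array 2 in the normexp values. The share of all undetected probes that did the same was not computed. The brightest Cpeb2 probe had 0.93 on array 1 and -0.79 on array 2, against 0.06 and -0.48 by normexp. The Cpeb3 probe A_52_P432495 had 1.81 and -0.73, against 0.14 and 0.07 by normexp. Of the 12 detected probes, which belong to 8 genes, 10 were below 0 on both arrays with Feature Extraction's ratios. The share of all detected probes below 0 on both arrays was not computed for those ratios.

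Probes of 1 gene also parted outside the 10. Junb, an AP-1 factor downstream of JNK, stood at 0.0007 ± 0.3100 by the probe used, and the second detected probe gave 1.06, with 1.21 on array 1 and 0.91 on array 2. For the Klf8 difference only 1 probe was detected, and it was 1.94 in the deposited table.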
